A study of Mus musculus with 5 samples.

Results

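Ductal epithelial tumour cells low in gastric genes were examined in single-cell RNA sequencing of mouse pancreatic adenocarcinoma. A cell was a member when its UMIs (unique molecular identifiers, each standing for one captured RNA molecule) met the 3 limits below, per 10000 UMIs of the cell. The summed level of Epcam, Cldn4 and Cldn7 was at least 10, that of Tff1, Tff2 and Gkn3 was under 10, and that of Ins1, Ins2 and Iapp was under 500. Members were thus selected on these measured values, so the levels of the 9 genes in them are a description. The rule found 1542 cells among 17771, or 8.68%. A further 854 cells had the epithelial sum but a gastric sum of 10 or more and are called gastric-like epithelial cells, 1 cell was set aside by the islet sum, and 15374 cells had an epithelial sum under 10.

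The study sampled advanced pancreatic tumours at 7 to 8 weeks of age from KPPC mice, whose pancreatic lineage is recombined by Pdx1-Cre with loss of both copies of Trp53, and from KPPCN mice, in which Nsdhl is deleted as well. The genotypes behind these names are background knowledge of the model, since the labels give the names alone. Nsdhl encodes an enzyme that strips methyl groups from sterols on the way to cholesterol, and the series title asks how blocking that pathway bears on TGF-beta signalling and basal differentiation of the tumour. Pdx1-Cre acts in the embryonic pancreatic epithelium, so stromal, vascular and immune cells carry unrecombined alleles, and the loss of Trp53 is shared by both groups. Each library came from 1 tumour after removal of dead cells and of CD45-positive leukocytes, with about 6000 cells loaded on the droplet instrument and 98 base reads from the 3' ends of transcripts. There were 3 KPPC libraries, whose columns carry the codes C3, D3 and H2, and 2 libraries labelled KPPCN, numbered 1 and 2. A further KPPCN mouse named in the design was not analysed here.

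Ductal cells line the channels that carry pancreatic enzymes to the gut. They are held together by EPCAM and claudins, carry the keratins KRT7, KRT8, KRT18 and KRT19, and secrete bicarbonate through the chloride channel CFTR. Tumours of this lineage often take on a programme of the stomach lining, with trefoil factors, gastrokines and gel-forming mucins, while less differentiated tumours lose it and may gain mesenchymal, endocrine or embryonic genes. TGF-beta, a secreted cytokine that signals through SMAD transcription factors, is a known driver of such changes in pancreatic carcinoma.

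Of the genes that the results turn on, a few are known to respond to low oxygen or to low sterol through short motifs near their start sites. Promoters (250 bases before to 50 bases after the start, RefSeq, GRCm38.p6) are shown for 3 genes of a member cluster led by oxygen-responsive genes and for 1 gene of sterol synthesis. Capitals mark ACGTG, the core that hypoxia-inducible factors recognise, or TCACNCCAC, the element bound by sterol regulatory proteins, on either strand. Pgk1 encodes a glycolytic kinase (chrX:106186850-106187149, plus strand), Bnip3 a mitophagy receptor (chr7:138909457-138909756, minus strand), Pgam1 a glycolytic mutase (chr19:41911621-41911920, plus strand) and Hmgcs1 the synthase that starts the mevalonate pathway (chr13:119690101-119690400, plus strand).
Pgk1: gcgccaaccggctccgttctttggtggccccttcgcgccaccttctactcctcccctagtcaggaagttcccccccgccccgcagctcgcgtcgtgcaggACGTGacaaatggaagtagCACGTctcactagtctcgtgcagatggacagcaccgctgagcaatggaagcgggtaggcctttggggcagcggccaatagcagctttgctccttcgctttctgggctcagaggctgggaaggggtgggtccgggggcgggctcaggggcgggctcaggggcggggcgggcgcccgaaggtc
Bnip3: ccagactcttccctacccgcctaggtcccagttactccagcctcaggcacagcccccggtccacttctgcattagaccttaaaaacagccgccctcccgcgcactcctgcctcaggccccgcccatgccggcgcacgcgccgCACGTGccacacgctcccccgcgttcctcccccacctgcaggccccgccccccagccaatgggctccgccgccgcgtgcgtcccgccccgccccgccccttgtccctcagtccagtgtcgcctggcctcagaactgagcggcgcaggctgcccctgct
Pgam1: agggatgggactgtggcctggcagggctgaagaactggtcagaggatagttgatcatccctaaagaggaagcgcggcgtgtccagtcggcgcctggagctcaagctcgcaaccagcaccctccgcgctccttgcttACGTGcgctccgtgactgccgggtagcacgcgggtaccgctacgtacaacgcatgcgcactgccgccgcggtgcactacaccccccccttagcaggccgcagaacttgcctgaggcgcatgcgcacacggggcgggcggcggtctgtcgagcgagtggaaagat
Hmgcs1: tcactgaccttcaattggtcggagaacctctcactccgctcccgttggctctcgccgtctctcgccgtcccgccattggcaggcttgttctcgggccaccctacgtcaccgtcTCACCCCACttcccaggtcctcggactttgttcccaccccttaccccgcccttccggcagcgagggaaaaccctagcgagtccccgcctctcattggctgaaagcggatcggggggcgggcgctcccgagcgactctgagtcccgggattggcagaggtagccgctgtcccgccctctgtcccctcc
In Bnip3 both copies of the core overlap as CACGTG. The core ACGTG stood in 19.6% of 32851 mouse promoters of the same length, and in 4 of the 5 promoters matched among 6 genes of that cluster (also Hilpda, not Tpi1). These 6 genes were picked from the cluster because they are known to respond to oxygen or belong to glycolysis, and its leading genes Sprr1a, Npy, Lgals3 and Cldn18 were not searched, so nothing is read from that count. TCACNCCAC stood in 1.24% of the promoters, and in 1 of the 18 matched among 26 sterol genes. A longer form, with 1 more base, was searched first and stood in 0.234% of the promoters and in 0 of the 18, and the shorter form was chosen after that. A match is a description of the letters, not of a bound site.

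Members were common in KPPC tumours and rare in the libraries labelled KPPCN. They made up 405 of 3777 cells in KPPC C3 (10.7%, 95% Wilson interval 9.78% to 11.7%), 596 of 3282 in D3 (18.2%, 16.9% to 19.5%) and 461 of 2515 in H2 (18.3%, 16.9% to 19.9%). In KPPCN 1 they made up 47 of 6111 cells (0.769%, 0.579% to 1.02%) and in KPPCN 2 33 of 2086 (1.58%, 1.13% to 2.21%). Both KPPCN shares lay below all 3 KPPC shares: the mean was 15.7% ± 4.34 (SD, n = 3) in KPPC and 1.18% ± 0.575 (SD, n = 2) in KPPCN, a difference of -14.6 percentage points (exact permutation test, two-sided p = 0.1, the smallest that 10 regroupings of 5 libraries can give). Nothing in the labels says more of how each tumour was sampled, and the yield of epithelial cells and the genotype cannot be told apart in these shares. Without cells that hold RNA of another class, in members and in the denominator, the difference was -34.3 points. With that smaller denominator both means rose, to 36.9% in KPPC and 2.57% in KPPCN. The filter was not alike in the genotypes, since its leukocyte genes Ptprc, Cd79a and Cd3e are not in the KPPC table.

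Among cells with the epithelial sum, members were the majority in every library before thinning and the genotypes overlapped. The shares were 66.2%, 63.6% and 63.5% in KPPC C3, D3 and H2, 59.5% in KPPCN 1 (95% Wilson interval 48.5% to 69.6%) and 78.6% in KPPCN 2 (64.1% to 88.3%). The means were 64.4% ± 1.52 (SD, n = 3) and 69.0% ± 13.5 (SD, n = 2), a difference of 4.61 points (exact permutation test, two-sided p = 0.7). This difference turned to -0.894 points with an epithelial sum of at least 20 and to -4.93 points without KPPCN 2, and was 14.1 points without KPPCN 1. With the rule applied to cells thinned to 2000 UMIs, the shares were 58.0% to 63.2% in KPPC and 48.7% to 71.4% in KPPCN. Members were then not the majority in every library. Intervals on shares cover counting error only.

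**Figure D1:**
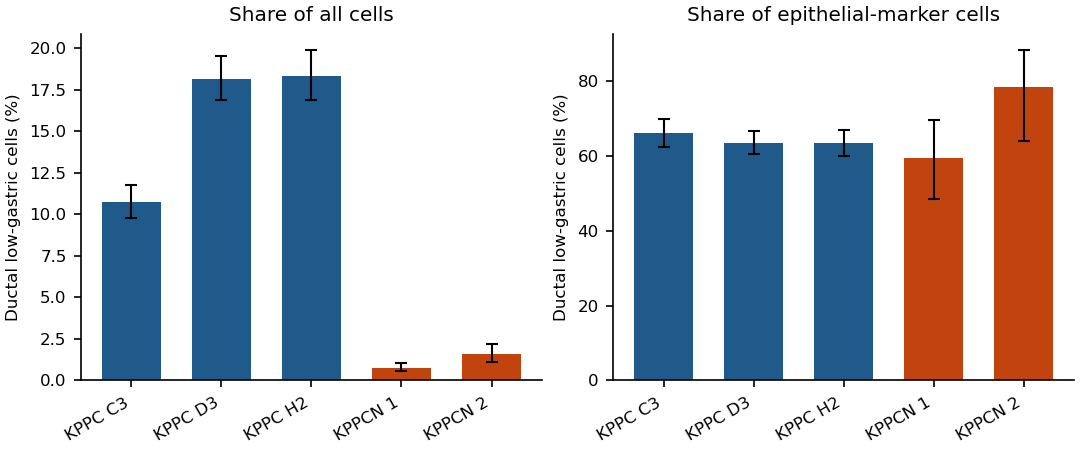
Member cells as a percentage of all cells (left) and of cells with the epithelial sum (right), 1 bar per library, with 95% Wilson intervals as error bars. The 3 KPPC bars of all cells stand at 10.7% to 18.3% and the KPPCN bars at 0.769% and 1.58%, while the shares of epithelial cells overlap between 59.5% and 78.6%.

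Members near the limits of the rule were few. In the order C3, D3, H2, KPPCN 1 and KPPCN 2, which is kept below, 18, 11, 19, 3 and 3 members had an epithelial sum of 10 to 12, and 16, 15, 18, 17 and 1 cells lay just outside at 8 to 10. For the gastric sum, 14, 20, 19, 2 and 0 members lay at 8 to 10, and 8, 19, 11, 2 and 0 cells just outside at 10 to 12. In 80, 22, 52, 34 and 29 members the gastric sum was 0.

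The depth of the members differed between the genotypes. Their summed UMIs came to 9191097, 16151332 and 10568214 in the 3 KPPC libraries, and to 372402 and 470889 in KPPCN 1 and 2. The median member held 17337, 18927 and 18487 UMIs in KPPC but 4416 and 8550 in KPPCN. The median cell under the epithelial sum held 17112, 18952, 17242, 1988 and 21126 UMIs. Members were thus deeper than those cells in KPPCN 1, shallower in KPPCN 2 and near them in KPPC. RNA of blood cells also moved with the library: 5 erythroid genes summed to 13743 CPM (UMIs per 1e+06 UMIs of the summed members) in KPPCN 1 and to 0, 6.62, 91.3 and 488 CPM in D3, H2, KPPCN 2 and C3, all 5 being listed at 0 in D3. B-cell genes summed to 846 CPM in KPPCN 1, with 6 of 6 detected, and to 12.4 CPM at most elsewhere, where KPPC holds 1 of the 6 in its table. The part of these RNAs and of depth in the differences between genotypes was not tested. Of all cells, 27 barcodes were shared between libraries, 1 of them among members (D3 and H2). No doublet caller was run.

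Epcam (chr17:87635979-87651129, plus strand), the adhesion molecule that the rule itself required, stood at 1611, 2126 and 1540 CPM (KPPC) and 913 and 1869 CPM (KPPCN). Keratins that the rule did not use were read as a check of epithelium. They do not set ductal cells apart from gastric-like cells, which hold them as well. Krt7 (chr15:101411043-101430313, plus strand), a keratin of ductal cells, stood at 2725, 3205 and 3085 CPM (KPPC) and 2366 and 2918 CPM (KPPCN). With every cell thinned to 2000 UMIs, a Krt7 UMI was found in 89.9%, 93.5%, 92.9%, 94.3% and 84.6% of members and in 10.4%, 16%, 14.2%, 6.16% and 1.71% of cells under the epithelial sum. Krt19, its partner in the ductal lining, stood at 2155, 1752 and 2300 CPM (KPPC) and 2218 and 1958 CPM (KPPCN), and Krt8 at 4512, 4379 and 5976 CPM (KPPC) and 3682 and 4659 CPM (KPPCN). For each of these 3 keratins the levels of the genotypes overlapped. Among thinned gastric-like cells a Krt7 UMI was found in 83.4%, 84.6%, 83.3%, 85.7% and 75%. For Krt19 the shares were 86.8%, 84.9%, 86%, 91.4% and 65.4% of thinned members and 95%, 95.6%, 88%, 92.9% and 87.5% of thinned gastric-like cells.

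Of the other genes that mark these cells, Onecut2, a foregut transcription factor, stood at 745, 822 and 625 CPM (KPPC) and 840 and 767 CPM (KPPCN), with the genotypes overlapping. It was found in 62.2%, 68%, 60.1%, 80% and 57.7% of thinned members and in 71.4%, 79.2%, 64.3%, 82.1% and 62.5% of thinned gastric-like cells, so it marked both kinds of epithelium. Cldn4, a sealing claudin of the rule, stood at 727, 1278 and 1008 CPM (KPPC) and 242 and 860 CPM (KPPCN), lowest in KPPCN 1.

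Of the 6 marker genes, Sox11 was higher in members than in gastric-like cells in all 4 libraries compared, and Pyy in the 3 KPPC libraries. Sox11 (chr12:27334264-27342574, minus strand) encodes a transcription factor of embryonic nervous and epithelial tissue. It stood at 338, 564 and 346 CPM (KPPC) and 96.7 and 469 CPM (KPPCN) in members and at 37.1, 70.1, 40.4 and 35.6 CPM in gastric-like cells, higher in members in each of these 4 libraries. After thinning, 34.5%, 47.9%, 33.2%, 17.1% and 34.6% of members held a Sox11 UMI (60.2%, 81.4%, 65.5%, 34.0% and 51.5% before thinning), against 5.53%, 10.2%, 6.2%, 10.7% and 0% of gastric-like cells. The cells under the epithelial sum gave 2.14%, 3.02%, 2.41%, 1.05% and 17.3%, so in KPPCN 2 other cells carried Sox11 as well. Thinning left out 19, 12, 12, 12 and 7 members, and kept 386, 584, 449, 35 and 26. Between genotypes the Sox11 log2 difference was -0.79 ± 0.54 (SE, limma, adjusted p = 0.558), with KPPCN 1 below and KPPCN 2 within the KPPC values.

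Pyy (chr11:102106676-102107832, minus strand) encodes peptide YY, a gut hormone of endocrine cells. It stood at 287, 492 and 164 CPM (KPPC) and 0 and 488 CPM (KPPCN) in members and at 78.4, 113, 12.7 and 0 CPM in gastric-like cells. Among thinned members 11.9%, 14%, 4.23%, 0% and 11.5% held a Pyy UMI (21.2%, 29.2%, 11.5%, 0% and 9.09% before). Gastric-like cells gave 2.01%, 7.85%, 1.94%, 0% and 0% (9.18%, 24.9%, 7.17%, 0% and 0% before), so that in D3 the share before thinning was near that of members, and cells under the epithelial sum gave at most 0.903%. If UMIs were spread evenly over cells, the count of 0 in KPPCN 1 would allow up to 8.06 CPM over its summed members, counting error only. By cells, 0 of its 47 members allows up to 6.38% of cells with Pyy. Since Pyy sat in few members at a high level, the limit in CPM is not firm. In KPPC, Sox11 was found in 67.4%, 75.6% and 52.6% of thinned members with Pyy and in 30%, 43.4% and 32.3% of those without.

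Against gastric-like cells, which the gastric sum itself divides from the members, the members differed across the table, and the comparison is given as a description with no test. It covers KPPC C3, D3, H2 and KPPCN 1, since KPPCN 2 held only 9 gastric-like cells. Of 3193 genes at 50 CPM or more, 991 were higher in members in all 4 libraries (31%) and 579 lower in all 4 (18.1%), with a median log2 ratio of 0.13. Ratios are of CPM + 5.

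Stomach genes that the rule did not use were lower in members along with those it used. Of 21 genes of the gastric list at that level, which includes the 3 of the rule, 19 were lower in all 4 libraries and 0 higher, with a median log2 ratio of -2.12. Without those 3 genes, 16 of 18 were lower in all 4 libraries and 0 higher, with a median of -2.06. Gkn1, a gastrokine of the stomach surface, stood at 22.5, 64.9 and 65.5 CPM (KPPC) and 29.5 and 93.4 CPM (KPPCN) in members and at 1720, 1521, 1754 and 1565 CPM in gastric-like cells. Agr2, a disulfide isomerase needed for mucin folding, stood at 97.7, 36.7 and 28.8 CPM (KPPC) and 80.6 and 2.12 CPM (KPPCN) against 754, 549, 516 and 431 CPM, a median log2 ratio of -3.31. Of 15 genes of the classical tumour subtype, 13 were lower in all 4 libraries and 0 higher (median -1.71). Among them Tspan8, a tetraspanin of glandular epithelium, stood at 377, 286 and 358 CPM (KPPC) and 309 and 246 CPM (KPPCN) in members and 781, 835, 804 and 788 CPM in gastric-like cells.

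Some secretory duct genes were lower too, of which Cftr, Elf3 and Muc1 were chosen after their values were seen. Cftr, the chloride channel of bicarbonate secretion, stood at 46.3, 27.1 and 43 CPM (KPPC) and 32.2 and 53.1 CPM (KPPCN) in members and at 176, 158, 142 and 139 CPM in gastric-like cells. Elf3, an epithelial transcription factor, stood at 238, 238 and 220 CPM (KPPC) and 317 and 204 CPM (KPPCN) against 487, 576, 608 and 677 CPM. The members' values lay below every gastric-like value for both genes. Muc1, a membrane mucin, stood at 326, 280 and 324 CPM (KPPC) and 824 and 308 CPM (KPPCN) against 731, 814, 814 and 1272 CPM, lower in members within each library. Over the ductal identity list, 11 of 20 genes were lower and 1 higher in all 4 libraries (median -0.41), and over 12 genes of ion and bicarbonate transport 5 were lower and 1 higher (median -0.47). Krt7 was higher in members in the 3 KPPC libraries and lower in KPPCN 1, where gastric-like cells stood at 2641 CPM. Reg1, a secreted protein of injured acinar cells, stood at 694, 340 and 1937 CPM (KPPC) and 483 and 172 CPM (KPPCN) against 5630, 5229, 5668 and 877 CPM. In C3, D3, H2 and KPPCN 1, acinar genes summed to 1128, 117, 5995 and 287 CPM in members and to 5738, 2872, 10246 and 228 CPM in gastric-like cells. Of 14 acinar genes all are listed in KPPCN but only 9 in KPPC, of which 5 held UMIs in D3 and 7 in H2. The sums thus cover the same genes within a library but not between libraries. The part of acinar RNA in the Reg1 values was not tested.

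Transcription factors of the foregut and pancreas divided. Of 12 at 50 CPM or more, 5 were lower and 2 higher in members in all 4 libraries (median -0.04). Sox9, the factor of ductal progenitors, stood at 196, 207 and 161 CPM (KPPC) and 77.9 and 257 CPM (KPPCN) in members and at 167, 159, 118 and 49.9 CPM in gastric-like cells, higher in members within each library. Gata6, which upholds classical differentiation, stood at 53.1, 41.4 and 40.4 CPM (KPPC) and 18.8 and 44.6 CPM (KPPCN) against 72.2, 78.8, 67.4 and 67.7 CPM, and Hnf4a, an activator of gut epithelial genes, at 28.9, 27.1 and 28.8 CPM (KPPC) and 48.3 and 27.6 CPM (KPPCN) against 42.3, 50.7, 44.5 and 60.6 CPM, both lower in members within each library. Of 16 tight junction genes, 8 were lower and 2 higher (median -0.24), including Cldn18, the stomach claudin, at 13.8, 89.8 and 67.6 CPM (KPPC) and 21.5 and 34 CPM (KPPCN) against 59.3, 176, 222 and 214 CPM. Among EGF receptors and ligands 3 of 6 were lower and 0 higher, with Erbb3 at 46.3, 41.5 and 50.1 CPM (KPPC) and 40.3 and 53.1 CPM (KPPCN) against 84.2, 84.8, 94.8 and 96.2 CPM. Cdkn2a, the cell cycle inhibitor of the Ink4a locus, stood at 225, 370 and 291 CPM (KPPC) and 255 and 291 CPM (KPPCN) against 128, 212, 152 and 160 CPM, higher in members in each library.

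Some mesenchymal, SMAD-related and embryonic genes were higher in members, beside 31% of the 3193 genes at that level. Fn1 (chr1:71585520-71653200, minus strand), which encodes the matrix protein fibronectin, stood at 2247, 2404 and 2320 CPM (KPPC) and 602 and 2105 CPM (KPPCN) in members and at 245, 279, 144 and 510 CPM in gastric-like cells. Tnc (chr4:63959785-64047015, minus strand), which encodes the matrix protein tenascin C, stood at 160, 150 and 113 CPM (KPPC) and 26.9 and 82.8 CPM (KPPCN) against 11.4, 11.5, 4.15 and 17.8 CPM. Both genes were higher in members in every library, by least in KPPCN 1. Of 6 mesenchymal genes, 4 were higher in all 4 libraries and 0 lower (median 1.42), including Vim, an intermediate filament of mesenchymal cells, at 483, 391 and 356 CPM (KPPC) and 456 and 342 CPM (KPPCN) against 142, 176, 62.4 and 210 CPM. After thinning, a Vim UMI was found in 32.4%, 26.7% and 22.7% of KPPC members against 22.1%, 17.1% and 6.98% of gastric-like cells. In KPPCN 1 this share was lower in members, at 28.6% of 35 cells against 50% of 28. Fibroblast genes in the members summed to 1966, 612, 617, 1332 and 427 CPM, and a cluster led by Dcn and Col3a1 held 56 of the cells. The part of this RNA was not tested.

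Of 17 SMAD and SMAD-target genes, 8 were higher and 1 lower in all 4 libraries (median 0.44). Pmepa1, a SMAD target that feeds back on the pathway, stood at 915, 924 and 848 CPM (KPPC) and 599 and 911 CPM (KPPCN) against 594, 574, 436 and 421 CPM. Of 6 TGF-beta ligands, receptors and latency proteins at that level, 2 were higher and 0 lower (median 0.89). Inhba, the subunit of activin, another SMAD-activating ligand, stood at 127, 196 and 169 CPM (KPPC) and 21.5 and 353 CPM (KPPCN) against 9.74, 18, 8.02 and 64.1 CPM, higher in members in the KPPC libraries and lower in KPPCN 1. Ankrd1, a nuclear protein induced by stretch and by YAP, stood at 188, 412 and 178 CPM (KPPC) and 113 and 127 CPM (KPPCN) against 31.9, 30.9, 22.7 and 17.8 CPM.

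Of 8 oncofetal genes, 5 were higher and 2 lower in all 4 libraries (median 0.48). Hmga2, a chromatin protein of embryonic tissue, stood at 150, 264 and 327 CPM (KPPC) and 69.8 and 425 CPM (KPPCN) against 32.9, 38.4, 73.1 and 57 CPM, and Cldn6, an embryonic claudin, at 115, 192 and 183 CPM (KPPC) and 56.4 and 153 CPM (KPPCN) against 23.2, 34.3, 34 and 17.8 CPM. The endocrine list has 32 genes, of which 6 are in both tables and 3 stood at 50 CPM or more. Of these Tph1 and Cpe were higher in members in all 4 libraries, and Pyy was at 0 in both kinds of cell in KPPCN 1. Tph1, which makes the serotonin precursor in enterochromaffin cells, stood at 124, 156 and 38.3 CPM (KPPC) and 21.5 and 6.37 CPM (KPPCN) against 5.71, 31.8, 3.74 and 0 CPM, and Cpe, the carboxypeptidase that trims hormone precursors, at 237, 335 and 399 CPM (KPPC) and 169 and 278 CPM (KPPCN) against 39.1, 60.1, 78.2 and 49.9 CPM. Of 14 genes of the unfolded protein response 9 were lower and 0 higher (median -0.15), and of 16 oxygen-responsive and glycolytic genes 8 were higher and 0 lower (median 0.39).

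**Figure D2:**
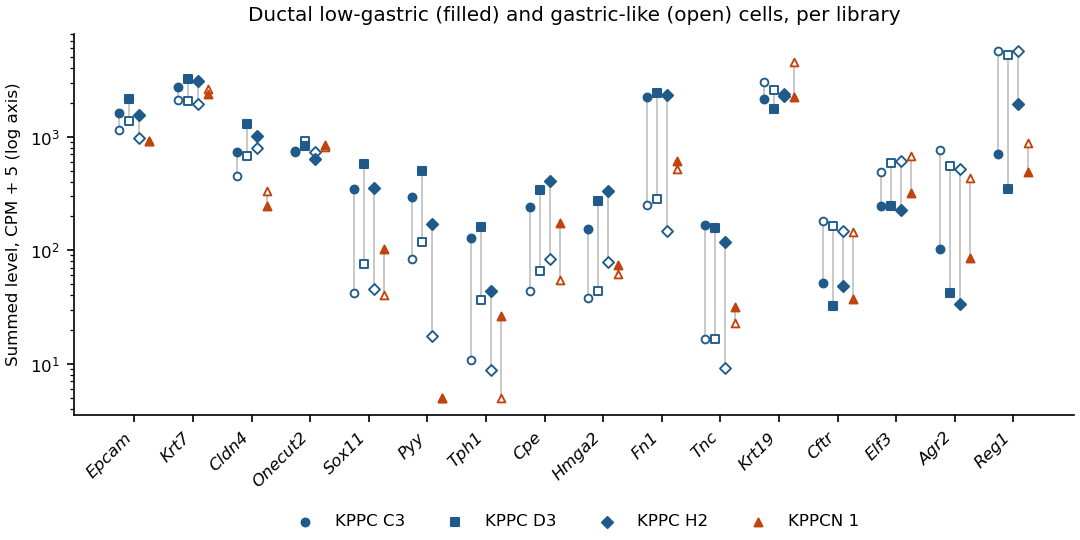
Levels of 16 genes in member cells (filled) and gastric-like epithelial cells (open), as CPM + 5 on a log axis, 1 point for each of the 4 libraries that hold at least 10 cells of both kinds. Sox11, Tnc, Fn1, Tph1 and Cpe stand higher in members, Agr2, Reg1, Cftr and Elf3 lower, and Onecut2 overlaps.

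Members were not uniform. Clustering on 1000 variable genes, with the 9 rule genes left out, gave 10 clusters, described here by number because their genes defined them. Shares are of each library's members and levels are in the cluster against all other members of the library.

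Cluster 1 (374 cells) was led by Sprr1a, Pgk1, Npy, Lgals3, Cldn18, Pgam1, Hilpda and Tpi1, several of them glycolytic or oxygen-responsive genes. It held 21.2%, 22.0% and 24.7% of KPPC members, 70.2% of those in KPPCN 1 and 30.3% in KPPCN 2. Pgk1, whose promoter holds the core motif shown above, stood at 1025 against 265 CPM in C3, 1342 against 274 in D3, 786 against 247 in H2, 842 against 504 in KPPCN 1 and 517 against 316 in KPPCN 2. Bnip3 stood at 229 against 26.8 CPM, 120 against 20.7, 86.3 against 15, 161 against 17.1 and 58.7 against 29.9 in the same order. Both genes were higher in the cluster in every library, as was Sprr1a. Cldn18 was higher in it in KPPC (37.2 against 9.43 CPM, 245 against 36.5 and 200 against 20.3) but not in KPPCN (19.6 against 25.7 CPM and 5.87 against 49.9). In KPPCN 2 Pgam1 stood at 364 against 336 CPM and Tpi1 at 616 against 562, close to each other. Sprr1a, a precursor of the cornified envelope, stood at 1011 against 159 CPM in C3 and at 998 against 154 in KPPCN 1.

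Cluster 7 (233 cells) was led by mesenchymal genes and held 13.1%, 14.3%, 18.7%, 4.26% and 21.2% of members. Its leading genes included Tnc, Fn1, Nt5e, Vim and Inhba. Tnc stood at 915 against 43.8 CPM in C3, 1114 against 31.1 in D3 and 587 against 11.4 in H2. Fn1 stood at 8602 against 1265 CPM, 8655 against 1629 and 9033 against 877 in these libraries. Other members therefore still held more Fn1 than the gastric-like cells of their library, at 245, 279 and 144 CPM. Sox11 was also higher in this cluster, at 640 against 292 CPM, 796 against 536 and 764 against 256.

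Clusters 3 (149 cells) and 10 (218 cells) were both led by Pyy and Tph1. Cluster 10 held 9.63%, 24.0% and 7.59% of KPPC members, none in KPPCN 1 and 3.03% in KPPCN 2. There Pyy stood at 1087 against 174 CPM in C3, 1142 against 208 in D3 and 456 against 131 in H2. Sox11 stood at 844 against 268 CPM, 989 against 379 and 773 against 296. Krt16, a keratin of activated squamous epithelium, stood at 98.1 against 21.1 CPM, 229 against 41.2 and 96.8 against 18.6. Atf3, an early stress gene, was also high in it, at 2105 against 829 CPM, 3019 against 1439 and 1971 against 731. Cluster 3 held 8.40%, 8.56%, 13.0%, 2.13% and 9.09% of members, with Tph1 at 527 against 88.4 CPM in C3, 331 against 145 in D3 and 104 against 27.4 in H2.

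Cluster 2 (227 cells), led by Ly6d, Dmbt1 and Olfm4, held 25.7% of the members of C3 but 10.7%, 11.5%, 6.38% and 9.09% in the other libraries. Dmbt1, a secreted scavenger protein of mucosal surfaces, stood in it at 11013 against 989 CPM in C3, 7670 against 226 in D3 and 3468 against 286 in H2. Olfm4, a marker of intestinal stem cells, stood at 507 against 26.0 CPM, 402 against 4.90 and 88.4 against 2.63. Cluster 9 (83 cells) was led by Trf and Lcn2, which bind iron or iron carriers, and held 4.20%, 7.05%, 4.56%, 0% and 9.09% of members. Spp1, which encodes osteopontin, reached 18910, 18182 and 20017 CPM in it. Cluster 4 (86 cells) was led by Ube2c, Birc5, Cenpf and Top2a, genes of dividing cells, and held 5.68%, 6.71%, 3.90%, 10.6% and 0% of members at a median of 35221 UMIs.

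Clusters 5 (81 cells, led by Egfl7, Plvap and Cldn5), 6 (56 cells, led by Dcn, Sparc and Col3a1) and 8 (35 cells, led by Ctrb1, Prss2 and Cpa1) carried leading genes of endothelium, fibroblasts and acinar cells and stayed unnamed. The median cell of cluster 5 held 3426 UMIs and that of cluster 6 28861. Of the 35 cells of cluster 8, 28 came from H2, and acinar genes summed to 5995 CPM in the members of H2 and to 117 to 1361 CPM elsewhere. These sums cover unlike sets of genes: 5 in D3, 7 in H2, 9 in C3 and 14 in KPPCN. The sum of H2 was thus above those of C3 and KPPCN with fewer genes, while that of D3 lacks genes that H2 holds. Without these 3 clusters the difference in the share of all cells was -12.9 points, and the count of genes changed between genotypes was 0, as with them.

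**Figure D3:**
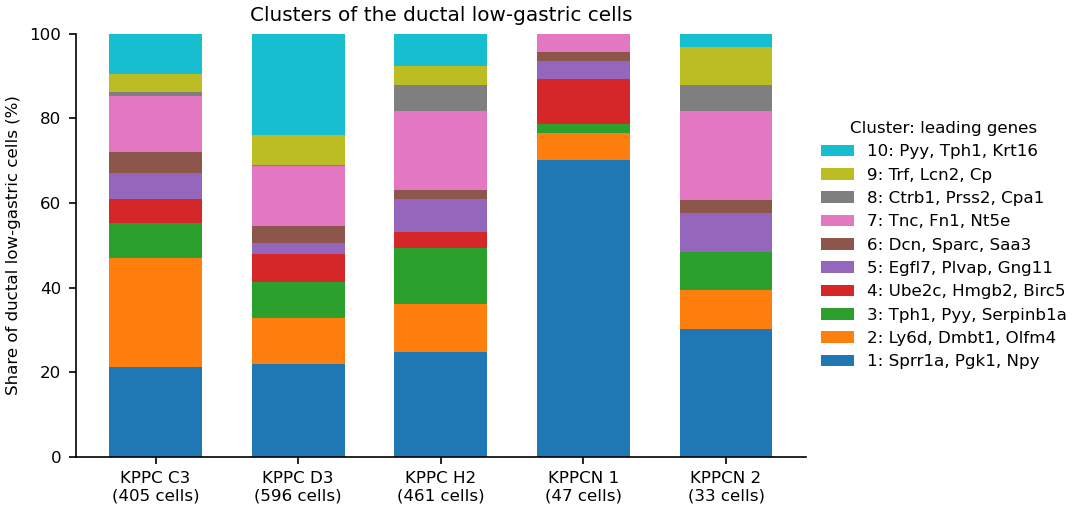
Share of each library's member cells in the 10 clusters, as stacked percentages, 1 bar per library. Cluster 1 takes 70.2% of the 47 members of KPPCN 1 and 21.2% to 30.3% elsewhere, and cluster 10 takes 24.0% of D3.

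**Figure D4:**
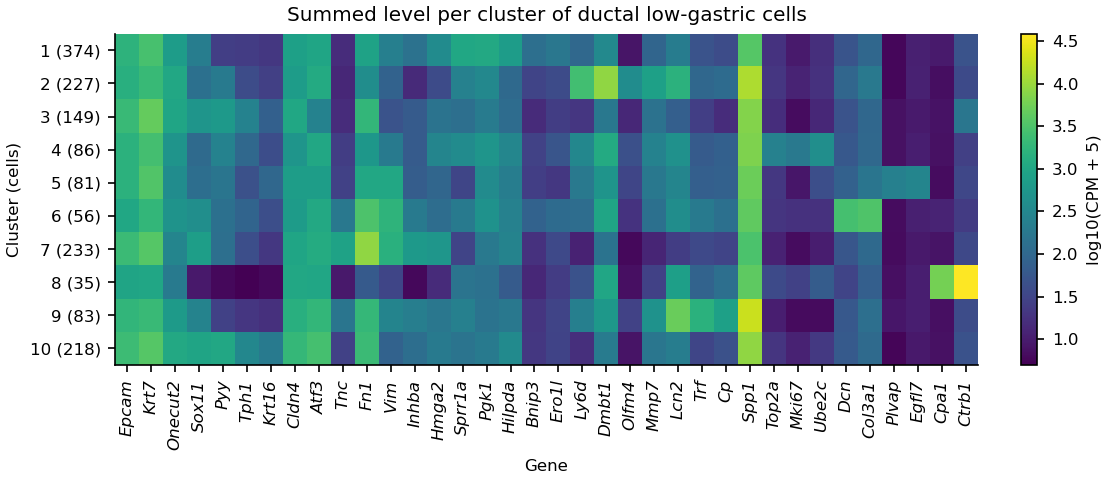
Levels of 36 genes (columns) in the 10 member clusters (rows), as log10 of CPM + 5 over the cluster's cells of all libraries. Tnc and Fn1 are highest in cluster 7, Vim in clusters 6 and 7, and Pyy and Tph1 in clusters 3 and 10.

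The study's question of Nsdhl loss was then put to the members by summing their UMIs per library and comparing KPPCN with KPPC in limma, on the log2(CPM + 5) scale. The deleted gene was looked at first. Nsdhl (chrX:72918557-72958514, plus strand) stood at 27.3, 23.2 and 27.6 CPM in KPPC members and at 29.5 and 34.0 CPM in KPPCN members, not lower in the libraries labelled KPPCN. The deleted exons are not given in the sources used here, and counts of 3' ends do not check a deletion elsewhere in the gene.

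No gene passed in this comparison. Of 8254 genes tested, 0 were called at a Benjamini-Hochberg adjusted p of 0.05 (0%), with 1004 at an unadjusted p under 0.05 and a lowest adjusted p of 0.339. The median log2 difference over all genes was -0.01, with 4020 above 0 and 4234 below. In both KPPCN libraries 1384 genes (16.8%) stood above all 3 KPPC libraries and 1297 (15.7%) below them. P-values measure the spread between tumours of each genotype, with only 2 on the KPPCN side.

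Genes of cholesterol synthesis and uptake stood mostly higher in KPPCN members, without passing the test. Of 25 tested, 24 had a log2 difference above 0 and 1 below, 0 were called and 6 had an unadjusted p under 0.05. In 11 of the 25 both KPPCN libraries stood above all KPPC libraries and in 0 below, beside 16.8% and 15.7% of all genes. Nsdhl itself belongs to this list and, at the values given above, is among the 11. Their median log2 difference was 0.40, against -0.01 over all genes, and was 0.27 without D3, 0.71 without KPPCN 1 and 0.30 without KPPCN 2. Without KPPCN 2, 16 lay above 0 and 9 below. At the start of the pathway, Acat2, which condenses acetyl-CoA, stood at 25.2, 25.3 and 26.6 CPM (KPPC) and 48.3 and 55.2 CPM (KPPCN). Hmgcs1, whose promoter holds the sterol element shown above, stood at 83.7, 70.5 and 111 CPM (KPPC) and 67.1 and 206 CPM (KPPCN), with only KPPCN 2 above KPPC.

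Of the enzymes from mevalonate to squalene, Mvk, Pmvk, Mvd, Idi1, Fdps and Fdft1 were tested, and none passed. Mvk, the mevalonate kinase, stood at 20.2, 16.7 and 18.3 CPM (KPPC) and 26.9 and 21.2 CPM (KPPCN), with 10 UMIs in each KPPCN library (0.28 ± 0.23 on the log2 scale, SE, limma, adjusted p = 0.63). Pmvk (chr3:89454541-89469013, plus strand), the phosphomevalonate kinase, stood at 40.6, 35.2 and 41.4 CPM (KPPC) and 88.6 and 87.1 CPM (KPPCN), a log2 difference of 1.05 ± 0.18 (SE, limma, adjusted p = 0.339). Mvd, the decarboxylase that follows it, stood at 19.8, 14.9 and 21.1 CPM (KPPC) and 34.9 and 40.3 CPM (KPPCN) and Idi1, the isomerase, at 27.2, 24.6 and 30.5 CPM (KPPC) and 34.9 and 68 CPM (KPPCN). Fdps (chr3:89093588-89101959, minus strand), which joins isoprene units into farnesyl diphosphate, stood at 147, 143 and 211 CPM (KPPC) and 295 and 338 CPM (KPPCN) (0.89 ± 0.23, adjusted p = 0.339). Fdft1, the squalene synthase, stood at 65.5, 55 and 68.2 CPM (KPPC) and 85.9 and 119 CPM (KPPCN). For each of these 6 genes, which are among the 11 of 25 counted above and of which Mvk, Idi1 and Fdft1 were chosen after their values were seen, both KPPCN libraries lay above the 3 KPPC libraries. With an epithelial sum of at least 20 the log2 difference of Fdps was 0.47, that of Mvd 0.54 and that of Acat2 0.56, and that of Idi1 was 0.35 without KPPCN 2. Srebf2, the master regulator of the pathway, differed by -0.04 on the log2 scale.

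Fatty acid synthesis shares the same regulators. Of 11 genes tested, 6 lay above 0 and 5 below, and 0 were called. In 3 both KPPCN libraries stood above KPPC and in 1 below, beside 16.8% and 15.7% of all genes. Fasn, the fatty acid synthase, stood at 51.1, 53.5 and 59 CPM (KPPC) and 102 and 104 CPM (KPPCN) (0.83 ± 0.17, adjusted p = 0.339), a difference that was 0.37 with an epithelial sum of at least 20. Elovl6, an elongase, stood at 12.6, 7.43 and 12 CPM (KPPC) and 26.9 and 25.5 CPM (KPPCN). Tfrc, the transferrin receptor, which belongs to none of these pathways, had a similar spread, at 16.5, 17 and 18.5 CPM (KPPC) and 37.6 and 38.2 CPM (KPPCN).

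**Figure D5:**
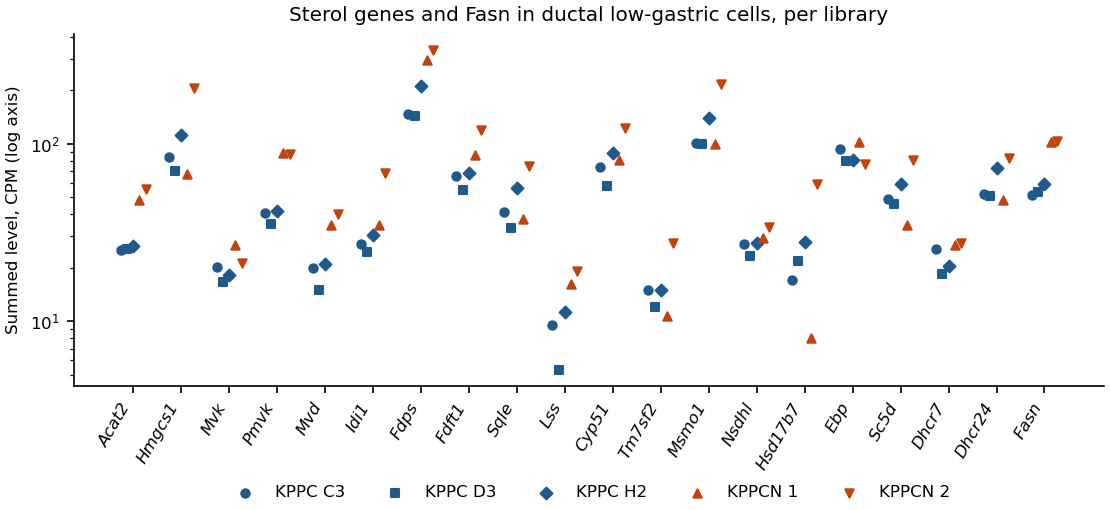
Member-cell levels of 19 sterol genes and Fasn in the 5 libraries, in CPM on a log axis, 1 point per library. Both KPPCN points lie above the 3 KPPC points for Pmvk, Fdps, Mvd, Idi1, Fdft1, Acat2 and Fasn, and on both sides of them for Hmgcs1.

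SMAD-related genes stood mostly lower in KPPCN members, again with 0 called. Of 20 SMADs and SMAD targets tested, 4 lay above 0 and 16 below, with a median log2 difference of -0.33 that was -0.19 without KPPCN 1. The 2 KPPCN libraries lay under every KPPC library for 5 of the 20 and above for 0, beside 15.7% and 16.8% of all genes. Ctgf, a secreted SMAD and YAP target, stood at 129, 94.9 and 94.2 CPM (KPPC) and 43 and 57.3 CPM (KPPCN) (-1.02 ± 0.22, adjusted p = 0.339). Pmepa1 stood at 915, 924 and 848 CPM (KPPC) and 599 and 911 CPM (KPPCN), with KPPCN 2 within the KPPC values. Of 16 TGF-beta ligands, receptors and latency proteins, 7 lay above 0 and 9 below. Both KPPCN libraries lay below KPPC for 4 of the 16 and above for 1, beside the same 15.7% and 16.8% of all genes. Among them Ltbp4, which holds latent TGF-beta in the matrix, stood at 112, 104 and 102 CPM (KPPC) and 56.4 and 53.1 CPM (KPPCN) (-0.93 ± 0.17, adjusted p = 0.339), and Thbs1, thrombospondin, which can activate it, at 160, 228 and 187 CPM (KPPC) and 64.4 and 125 CPM (KPPCN). Fn1 stood at 2247, 2404 and 2320 CPM (KPPC) and 602 and 2105 CPM (KPPCN), lowest in KPPCN 1, where cluster 7 held 4.26% of members.

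Basal and squamous genes, named in the study's title, gave few values that separated. Of 10 tested, 3 lay above 0 and 7 below. Both KPPCN libraries lay below KPPC for 1 of the 10 and above for 0, beside 15.7% and 16.8% of all genes. Of 8 keratins 1 lay above 0 and 7 below (median -0.32, and -0.21 without H2). For 3 of the 8 both KPPCN libraries lay below KPPC and for 0 above, beside the same shares of all genes. Krt17, a basal keratin, stood at 77.5 CPM in C3, 142 in D3, 34.9 in KPPCN 1 and 2.12 in KPPCN 2, and is listed at 0 in H2. Of 18 classical subtype genes 7 lay above 0 and 11 below. Of 19 gastric genes 6 lay above 0 and 13 below (median -0.37), a median that was -0.19 without C3, -0.60 without D3 and 0.14 without KPPCN 2. Mesenchymal genes gave 5 above 0 and 9 below of 14, and oncofetal genes 4 above and 5 below of 9.

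Stress genes and the unfolded protein response stood mostly lower in KPPCN. Of 19 genes of the latter, 5 lay above 0 and 14 below, and the median of -0.29 became -0.18 without D3 and 0.0029 without KPPCN 2. Both KPPCN libraries lay below KPPC for 7 of the 19 and above for 2, beside 15.7% and 16.8% of all genes. Dnajb9, a chaperone of the endoplasmic reticulum, stood at 51.7, 59 and 44.2 CPM (KPPC) and 24.2 and 23.4 CPM (KPPCN). Of 18 stress and immediate early genes, which dissociation of tissue also induces, 5 lay above 0 and 13 below (median -0.31, and -0.12 without D3). Both KPPCN libraries lay below KPPC for only 3 of the 18 and above for 1, near the 15.7% and 16.8% of all genes. Atf3 stood at 987, 1919 and 859 CPM (KPPC) and 381 and 550 CPM (KPPCN) and Ier3, an early response gene, at 1360, 2139 and 1387 CPM (KPPC) and 446 and 845 CPM (KPPCN). Oxygen-responsive and glycolytic genes stood higher in 19 of 22, with a median of 0.40 that was 0.80 without KPPCN 2 and -0.055 without KPPCN 1, where cluster 1 held 70.2% of members. For 5 of the 22 both KPPCN libraries stood above KPPC and for 0 below, beside 16.8% and 15.7% of all genes. Pgk1 stood at 385, 547 and 389 CPM (KPPC) and 736 and 389 CPM (KPPCN) and Aldoa, an aldolase, at 849, 760 and 734 CPM (KPPC) and 1480 and 1013 CPM (KPPCN).

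Signalling lists gave small and mixed values, with 0 called in each. Of 9 genes of the EGF family, 5 lay above 0 and 4 below: Btc, betacellulin, stood at 31.8, 28.2 and 31.2 CPM (KPPC) and 61.8 and 48.8 CPM (KPPCN), above in both KPPCN libraries, and Hbegf, another ligand of the receptor, at 906, 1014 and 780 CPM (KPPC) and 459 and 711 CPM (KPPCN), below in both. Of 8 Notch genes, 5 lay above 0 and 3 below, and Hes1, the main Notch target, stood at 394, 408 and 405 CPM (KPPC) and 150 and 353 CPM (KPPCN), below in both KPPCN libraries. Of 18 foregut factors, 6 lay above 0 and 12 below (median -0.04), Gata4 standing above in both KPPCN libraries at 10.8, 12.9 and 11.1 CPM (KPPC) and 18.8 and 25.5 CPM (KPPCN). Of 12 epithelial chemokines and cytokines, 4 lay above 0 and 8 below, and of 18 proliferation genes 8 lay above and 10 below.

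Antigen presentation genes lay above 0 in 10 of 10 (median 0.96, and 0.33 with the rule applied to cells thinned to 2000 UMIs). Both KPPCN libraries stood above KPPC for 2 and below for 0, beside 16.8% and 15.7% of all genes. Without KPPCN 1, only 6 genes of the list reached the mean of 10 CPM, 5 above 0 and 1 below. Some of the 10 therefore entered the comparison only through that library, where they were high. Without KPPCN 2, 7 lay above 0 and 3 below. Cd74, the invariant chain of class II molecules, stood at 26.4, 33.4 and 27 CPM (KPPC) and 218 and 6.37 CPM (KPPCN), and H2-Ab1, a class II chain, at 10.6, 16 and 6.15 CPM (KPPC) and 61.8 and 6.37 CPM (KPPCN). Class II genes were thus high in KPPCN 1 alone, the library whose members also held 846 CPM of B-cell RNA. The part of that RNA was not tested.

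The genes of lowest p were not from these lists alone. Among the lower ones in KPPCN members, Spp1 (chr5:104435118-104441050, plus strand) stood at 7369, 7853 and 5668 CPM (KPPC) and 3029 and 3232 CPM (KPPCN) and Cxcl5 (chr5:90759360-90761624, plus strand), a chemokine for neutrophils, at 172, 202 and 164 CPM (KPPC) and 77.9 and 82.8 CPM (KPPCN). For both genes the 2 KPPCN values lay under every KPPC value (-1.17 ± 0.24, adjusted p = 0.339 in limma, and -1.14 ± 0.18, adjusted p = 0.339), though Cxcl5 was at -0.71 with an epithelial sum of at least 20. Efna4, an ephrin ligand, stood at 49.2, 52.6 and 56.3 CPM (KPPC) and 10.7 and 21.2 CPM (KPPCN) and Lmcd1, a LIM-domain cofactor, at 92, 110 and 93.1 CPM (KPPC) and 32.2 and 12.7 CPM (KPPCN). A single UMI makes 2.69 CPM in the members of KPPCN 1 and 2.12 CPM in those of KPPCN 2. The low KPPCN levels of these genes, and of Gata4 and Elovl6 above, thus rest on few UMIs. Tubb2b, a neuronal tubulin, stood at 246, 275 and 245 CPM (KPPC) and 72.5 and 138 CPM (KPPCN). Sftpd, a collectin of lung and gut surfaces, was among the higher ones at 56.4, 44.3 and 52.8 CPM (KPPC) and 96.7 and 130 CPM (KPPCN). Gm26917, a gene model without a known product, stood at 267, 135 and 187 CPM (KPPC) and 1826 and 779 CPM (KPPCN) (2.61 ± 0.43). With all sums thinned to the smallest library, an alternative added after seeing the data, it passed at an adjusted p of 0.000981, and Lars2 passed with it.

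Whether the genotype difference in members differed from that in gastric-like cells was tested by an interaction term, with the 3 KPPC libraries against KPPCN 1 alone, so that its spread is assumed to be like that of KPPC. Of 8145 genes, 0 passed (0%), with 815 at an unadjusted p under 0.05 and a lowest adjusted p of 0.252. The value depended on the model: without precision weights 4585 genes passed, and without KPPC H2 3 passed, Spp1, Tppp3 and Vsig2. Spp1 stood at 7071, 7683 and 6168 CPM in KPPC gastric-like cells and at 898 CPM in KPPCN 1, so that it was lower there in both kinds of cell and by more in gastric-like cells (interaction 1.96 ± 0.22 on the log2 scale, adjusted p = 0.252 in limma). Jag1, a Notch ligand, had an interaction of -4.07 ± 0.70, at 85, 101 and 60.7 CPM (KPPC) and 2.69 and 80.7 CPM (KPPCN) in members and 20.8, 22.8, 15.9 and 35.6 CPM in gastric-like cells, the member value of KPPCN 1 being a single UMI.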

How the data were processed

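Single-cell 3' RNA libraries of 5 tumours were analysed. The tools are Cell Ranger 2.1.0, Seurat 3.0.2 and R 3.5.1 on GRCm38, per the submitters' processing notes. The values the authors deposited are natural log (ln) values of 1 + UMIs per 10000 UMIs of a cell, in 1 table per genotype (12579 genes and 9574 cells for KPPC, 31053 and 8197 for KPPCN). Dividing by each cell's smallest step gave whole UMIs for 100% of values within 0.01. Because the deposited unit is a log value, limma was used and no count test was run.

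The 12579 shared genes, which hold 99.3% of KPPCN UMIs, were used. In KPPC the genes at 0 over all cells of a library number 275 in C3, 418 in D3 and 1036 in H2, while every other gene is found in at least 61, 37 and 47 cells. These zeros were taken as missing, and 11413 genes entered the tests. UMIs of members were summed per library with at least 10 cells, scaled by trimmed means and tested as log2(CPM + 5) in limma 3.58.1 (R 4.3.3) with precision weights, a mean trend, a mean of at least 10 CPM and Benjamini-Hochberg adjustment. All groups entered each fit. Shares were compared by exact permutation over libraries (scipy 1.17.1). Clusters came from scanpy 1.11.5 (20 components, 15 neighbours, Leiden resolution 0.5). No cell was removed. KPPC cells were divided into libraries by the code in their column names.

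Members and the 43 gene lists were chosen with earlier results of these data known. Named genes are the rule and marker genes, up to 4 of lowest p and 4 of highest level in each list, the 10 of lowest p in each direction, the 15 most above and 15 most below gastric-like cells, the 8 leading genes of each cluster and 10 of the interaction. Bnip3, Cftr, Elf3, Erbb3, Fdft1, Hnf4a, Idi1, Krt17, Lars2, Muc1, Mvk, Nsdhl, Sox9 and Srebf2 fall outside it and were chosen after their values were seen. Alternatives covered scaling, pseudocount, filters, weights, the limits of the rule, depth and each library left out. Weights from the spread between cells, thinned sums, genes at 0 in a KPPC library, the removal of clusters 5, 6 and 8 and a minimum of 5 cells were chosen after seeing the data.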

Additional observations from a re-analysis of the deposited data

Results flagged for a closer look

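A few genes outside the 12579 shared by both tables, and so outside the comparisons, were seen in KPPCN members. In KPPCN 1, Krt6a, a keratin of activated squamous epithelium, held 25 UMIs in 2 of 47 members, Cd79a, a B-cell receptor chain, 18 UMIs in 9 members, and Ighg1, an immunoglobulin chain, 17 UMIs in 15 members. In KPPCN 2, Gm2663 held 160 UMIs in 2 of 33 members, Xirp2, a muscle gene, 152 UMIs in 3 members, and Crct1, a gene of the cornified layer, 33 UMIs in 1 member. These genes were not in the KPPC table, so their levels in KPPC were not analysed here.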

How the results depend on the processing

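The difference in the share of all cells stayed negative under all 13 alternatives, from -34.3 points without cells holding RNA of another class to -12.2 points with an epithelial sum of at least 20, and from -17.1 to -13.3 points when each library was left out. The share of epithelial cells turned to -0.894 points with an epithelial sum of at least 20, to -0.602 with the rule applied to thinned cells and to -4.93 without KPPCN 2 (leave-one-out range -4.93 to 14.1). The cause was not tested.

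The count of genes changed between genotypes was 0 in limma under every alternative but 1: with sums thinned to the smallest library it was 2 (Gm26917 and Lars2, both higher). Leaving out each library gave 0 to 0. The interaction gave 0 except for 4585 genes without precision weights (2354 higher, 2231 lower) and 3 without KPPC H2 (leave-one-out range 0 to 3). It could not be run without KPPCN 1, and plain totals moved its median over all genes to -0.14.

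Of 152 list medians under alternatives, 134 were the same, 15 moved and 3 reversed. The reversed ones were the oxygen-responsive list without KPPCN 1 (-0.055, leave-one-out range to 0.80), the unfolded protein response without KPPCN 2 (0.0029, range from -0.33) and the gastric list without KPPCN 2 (0.14, range from -0.60). Among 29 single genes, Nsdhl turned to -0.10 with an epithelial sum of at least 20 and Egln3 to -0.21 without KPPCN 1 (range to 2.01). Leaving out cells holding leukocyte RNA changed only the KPPCN denominators, since Ptprc, Cd79a and Cd3e are not in the KPPC table. By replicate number, no paired analysis was possible because the KPPC columns carry the codes C3, D3 and H2 and no replicate numbers. The labels state no pairing of KPPC with KPPCN mice, and each library came from a single tumour. Members and gastric-like cells were set side by side within libraries, with no test, since the rule itself divides them. The KPPCN sums rest on 47 and 33 cells, which limits the precision of low genes most.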
